A study of Rattus norvegicus with 6 samples.

Results

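Circular RNAs (circRNAs) of 4 genes of transforming growth factor beta (TGF-beta) and bone morphogenetic protein (BMP) signalling are described: the receptors Tgfbr2 and Acvr1, the latent TGF-beta binding protein Ltbp1 and the BMP-binding transmembrane protein Crim1. They comprise every listed circRNA whose gene field names 1 of these genes, 16 of 4143 in all: 1 of Tgfbr2, 2 of Acvr1, 6 of Ltbp1 and 7 of Crim1. The study compared rat dental follicle cells, the connective tissue cells that surround a developing tooth, with and without osteogenic induction. Cells of Sprague-Dawley rats aged 5 to 7 days, at passage 3 to 4, were held for 28 days in medium with 5% fetal bovine serum, alone (control, 3 samples) or with 1% of an induction liquid that held dexamethasone (0.010 mmol/L), ascorbic acid (0.028 mmol/L) and β-glycerophosphate (1.000 mol/L). No genetic change is named in the labels for either group. The treatment protocol counts 3 rats and the design text 4. RNA was depleted of DNA and linear RNA before sequencing, and the values are 1 pooled count column per group.

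Each count is a number of reads across a back-splice junction, the join that closes a circRNA. The start and end of a circRNA are its lower and higher genome position, which need not follow the order of transcription. The columns were scaled to totals of 203283 reads for control and 221596 for induction, those behind the deposited TPM values, and the 4143 circRNAs took 67.8% and 74.3% of them. The median over circRNAs was 9 counts, in control and in induction alike. With 1 pooled column per group there was no replicate and no test of induction against control. Ratios are given with an exact 95% interval that covers counting error only, not the spread between rats. All intervals take each column value as a sum of reads over the libraries, which the sources used here do not state. A circRNA is called higher or lower where it differed at least 2-fold and this interval excluded equal levels. Of 18 marker genes of dental follicle and mesenchymal cells, 7 hosted circRNAs, 145 in all, with sums of 39983 and 53370 counts. Most of these counts came from the many circRNAs of the collagen genes Col1a1 and Col3a1. None of 10 epithelial markers hosted a circRNA. Hosts were 1 of 8 leukocyte markers (29 and 19 counts), 1 of 6 endothelial markers (48 and 50) and 1 of 8 muscle and nerve markers (10 and 15). Their part in the results was not tested.

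TGF-beta is secreted in a latent complex that LTBP proteins tether to the extracellular matrix. Once released, it binds the type II receptor TGFBR2, which activates a type I receptor, and SMAD proteins carry the signal to the nucleus. BMPs act through related receptors, among them the type I receptor ACVR1, and are known as inducers of bone formation. CRIM1 carries cysteine-rich repeats that bind BMPs. A circRNA forms when a downstream splice donor joins an upstream acceptor of the same transcript, so its count need not follow that of the linear mRNA, which was not measured here.

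The hosts are shown first by the 250 bases before the gene start. The host sums of Crim1 and Tgfbr2 were lower in induction, while Ltbp1 had circRNAs of both directions, and a link to these bases was not tested. The sequences come from RefSeq on assembly GRCr8, minus strand, at chr8:124761470-124761719 for Tgfbr2, chr6:26177302-26177551 for Ltbp1 and chr6:22622417-22622666 for Crim1. Those 3 of the 4 hosts matched the table. Capitals mark the SMAD box CAGAC, read on either strand (as GTCTG on the other).
Tgfbr2: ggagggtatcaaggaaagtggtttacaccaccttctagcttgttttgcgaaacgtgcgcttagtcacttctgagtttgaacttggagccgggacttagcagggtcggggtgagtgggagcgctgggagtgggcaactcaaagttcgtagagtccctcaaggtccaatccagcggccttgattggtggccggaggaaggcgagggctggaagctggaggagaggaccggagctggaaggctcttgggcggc
Ltbp1: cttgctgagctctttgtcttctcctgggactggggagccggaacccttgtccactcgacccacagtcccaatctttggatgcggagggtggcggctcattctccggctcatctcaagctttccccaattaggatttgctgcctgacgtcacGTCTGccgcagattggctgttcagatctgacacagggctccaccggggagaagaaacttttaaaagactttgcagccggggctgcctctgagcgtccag
Crim1: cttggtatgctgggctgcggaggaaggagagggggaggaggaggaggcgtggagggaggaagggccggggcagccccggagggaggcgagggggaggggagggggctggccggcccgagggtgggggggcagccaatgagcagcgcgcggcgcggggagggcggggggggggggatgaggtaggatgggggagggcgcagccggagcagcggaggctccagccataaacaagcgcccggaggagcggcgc
The Ltbp1 window held 1 match, whose first base lies at −99 from the start, and those of Tgfbr2 and Crim1 held 0. Of 33469 RefSeq windows of this length, 42.9% held a match. The GC-rich SMAD site GGCGCC, its own reverse complement, was found in 8.69% of windows and in none of these 3. GC content was 58.0% for Tgfbr2, 56.8% for Ltbp1 and 76.0% for Crim1. A match is a description of letters, and back-splice counts do not measure promoter use.

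Of the 16 circRNAs, 7 were lower in induction, 1 was higher and 8 were neither. Over all 4143 circRNAs, 9.29% were lower and 9.22% were higher, 18.5% in all. The 4 genes were selected on measured values, the counts and ratios of this same contrast together with their place in the pathway, so nothing is read from the difference between these shares. The 7 lower circRNAs were 5 of Crim1, 1 of Ltbp1 and that of Tgfbr2, and the higher one was of Ltbp1. The ratio was under 1 for 13 of the 16, and the median log2 ratio was −0.96, against −0.05 over all circRNAs. At least 20 counts in both columns together were found for 12 of the 16. The other 4 (Acvr1-a, Ltbp1-a, Ltbp1-b and Crim1-c) had 4 to 11 counts, too few for a 2-fold difference to be told from counting error, except for a very uneven split. Of the 2011 circRNAs with at least 20 counts, 30.2% were called. The authors' deposited table gave an FDR under 0.05 to 8 of the 16, the same 8 that are called here, against 16.9% of all circRNAs, and both rules use the same counts. Fewer cells of a kind and less circRNA per cell cannot be told apart in RNA taken from many cells together.

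**Figure D1:**
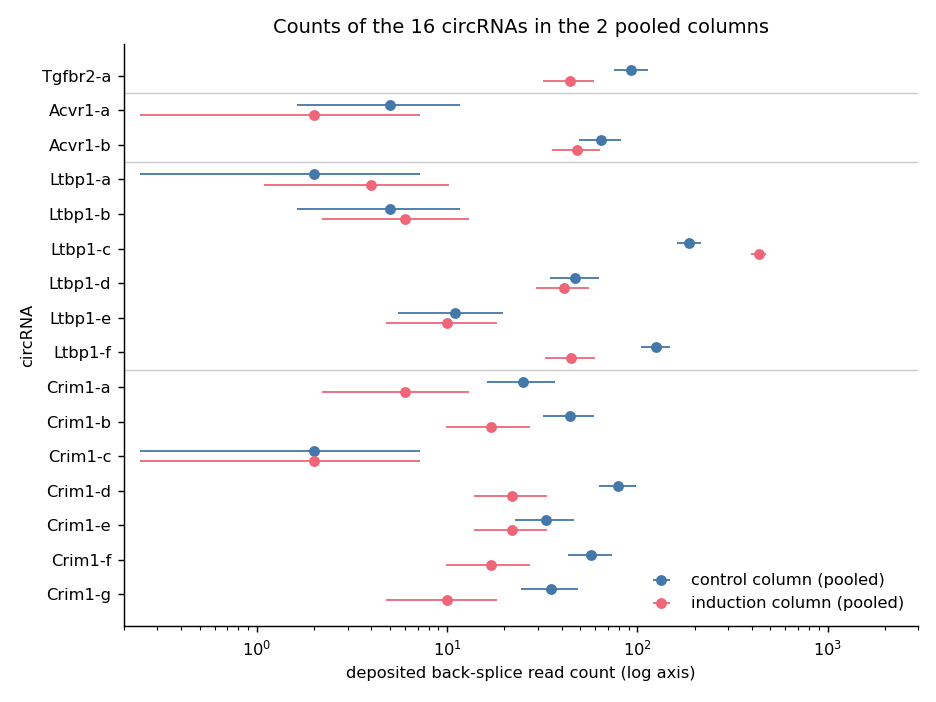
Deposited back-splice counts (log axis) of the 16 circRNAs in the pooled control (blue) and induction (red) columns, with exact 95% Poisson intervals that cover counting error only. Letters follow position within each host. The Crim1 points lie to the left in induction except for Crim1-c, at 2 counts in both, while Ltbp1-c lies to the right.

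Summed over circRNAs, the order of the hosts on the count scale was Ltbp1, Crim1, Tgfbr2 and Acvr1 in control, and Ltbp1, Crim1, Acvr1 and Tgfbr2 in induction. Junction counts are not divided by length, and a sum grows with the number of junctions listed. Ltbp1 had 377 counts in control (exact 95% Poisson interval 340 to 417) and 539 in induction (494 to 586). Crim1 had 275 (243 to 309) and 96 (77.8 to 117). Ltbp1 and Crim1 were apart beyond counting error in both columns, and the gap was wider in induction. Tgfbr2 had 93 (75.1 to 114) and 44 (32.0 to 59.1), and Acvr1 had 69 (53.7 to 87.3) and 50 (37.1 to 65.9). The intervals of these receptors overlapped in both columns, so their order is not settled. Among 1965 host genes, Ltbp1 was number 28 by summed count in control and 23 in induction, and Crim1 was 41 and 195.

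The receptors come first by role. Tgfbr2, the type II receptor for TGF-beta, had a single circRNA, on chromosome 8 from 124353233 to 124355370 (Rnor_6.0, as are all circRNA positions), a span of 2138 nt. It had 93 counts in control and 44 in induction, deposited TPM values of 457 and 199, and was 2.30-fold lower in induction (1.59 to 3.38). Among host sums, 9.41% were lower by the same rule and 7.79% were higher. The 2 hosts nearest to Tgfbr2 in both columns, by distance of log2 summed TPM over all hosts, were Abhd16a (99 and 42 counts, distance 0.11) and Afap1, which encodes an actin filament-associated protein (85 and 43 counts, distance 0.13). Both host sums were lower too, by 2.57-fold and 2.15-fold. Likeness over 2 columns says little beyond similar counts.

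Acvr1, a type I receptor for BMPs and activins, had 2 circRNAs on chromosome 3. Acvr1-b, from 44500847 to 44501118, spans 272 nt and had 64 and 48 counts, 1.45-fold lower (0.984 to 2.16). Acvr1-a, from 44459185 to 44464960, had 5 and 2 counts. Neither was called. Their sum was 1.50-fold lower (1.03 to 2.21), which excludes equal levels by counting error but is less than 2-fold. Equal levels were not excluded when the columns were scaled by DESeq2 size factors (0.992 to 2.13). The same held for totals without collagens and Rn7sl1 (0.976 to 2.09). Almost all of it was Acvr1-b, with 92.8% of the host's counts in control (83.9 to 97.6) and 96.0% in induction (86.3 to 99.5). A further circRNA, from 44500847 to 44522988, begins at the same base as Acvr1-b, but its gene field lists only names of multi-copy small RNAs, so it is not counted among the 16. It had 35 and 15 counts and was lower, 2.54-fold. With it added, an alternative chosen after seeing the data, the sum at Acvr1 was 104 and 65 counts, 1.74-fold lower (1.27 to 2.42). The hosts nearest to Acvr1 were the forkhead factor gene Foxn2 (69 and 47 counts, distance 0.09) and the glycosyltransferase gene Galnt11 (74 and 47 counts, distance 0.13), and neither was called.

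**Figure D2:**
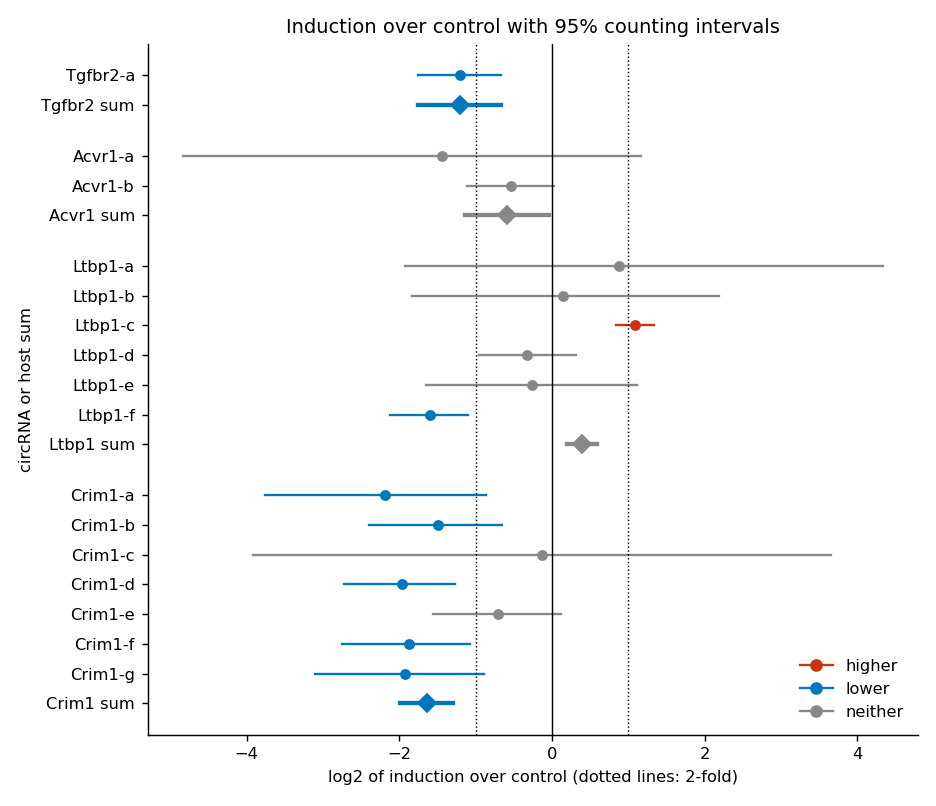
Log2 of induction over control for each circRNA (circles) and each host sum (diamonds), with 95% counting intervals and dotted lines at 2-fold either way. Red is higher, blue is lower and grey is neither. The sums of Tgfbr2 and Crim1 are lower, that of Acvr1 is at −0.59 and that of Ltbp1 at 0.39, both less than 2-fold.

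Ltbp1, which tethers latent TGF-beta to fibrillin-rich matrix, had 6 circRNAs over 256 kb of chromosome 6, and its sum hid opposite differences. Ltbp1-c, from 21334766 to 21354603, had 187 and 433 counts and was 2.12-fold higher (1.79 to 2.54). It was the most abundant of the 16 in both columns. Scaled to the listed counts its log2 ratio was 0.95 instead of 1.09, short of 2-fold. Ltbp1-f, from 21539861 to 21540152, had 125 and 45 counts and was 3.03-fold lower (2.14 to 4.36). The start of Ltbp1-f lies 185 kb beyond the end of Ltbp1-c. The sum was 1.31-fold higher (1.15 to 1.50), and without Ltbp1-c it had 190 and 106 counts, 1.95-fold lower (1.53 to 2.50), so that single circRNA set its direction. Without Ltbp1-f, an alternative chosen after seeing the data, it was 1.80-fold higher (1.54 to 2.10).

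The make-up of Ltbp1 differed between the columns beyond counting error. Ltbp1-c held 49.6% of the host's counts in control (44.4 to 54.8) and 80.3% in induction (76.7 to 83.6). Ltbp1-f held 33.2% (28.4 to 38.2) and 8.35% (6.15 to 11.0). Ltbp1-c therefore took most of the Ltbp1 counts in induction, where it had shared them with Ltbp1-f in control. The share of counts that would have to move between circRNAs of the host to turn the control make-up into that of induction was 30.9%. Over 84 hosts with at least 5 circRNAs and at least 50 counts per column, collagens left out, this share had a median of 14.1% and ranged from 1.27% to 38.9%, and Ltbp1 was number 6. It was number 12 of 95 with collagens. The measure was chosen after seeing the data and grows with counting error in hosts of few counts.

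Back-splice ends were reused within Ltbp1. Ltbp1-d, from 21351085 to 21354603, ends at the same base as Ltbp1-c, with 47 and 41 counts, a ratio of 0.800 (0.513 to 1.24). The interval of Ltbp1-c, 1.79 to 2.54, lies above it, so these circRNAs of one shared end differed in ratio. Over all hosts, 27.1% of 605 pairs that share an end, with at least 20 counts each, had ratio intervals that did not overlap, and without collagens it was 14.6% of 486. Ltbp1-e, from 21536571 to 21540152, shares its end with Ltbp1-f and had 11 and 10 counts. Its gene field also lists Eif3h and names of multi-copy small RNAs. Its interval (0.318 to 2.16) overlapped that of Ltbp1-f. Ltbp1-a, from 21283827 to 21288551, had 2 and 4 counts, and Ltbp1-b, from 21301779 to 21308087, had 5 and 6. Neither could be told from equal levels at this depth. The nearest hosts were Adamts6, a secreted metalloprotease gene with 14 circRNAs (404 and 519 counts, distance 0.11), and Rere, a nuclear co-regulator gene with 14 (334 and 494 counts, distance 0.22). Of 101 non-collagen hosts with at least 5 circRNAs, 5 had both a higher and a lower one, 4.95%, and Ltbp1 was among them. With collagens it was 13 of 112 hosts, 11.6%. This is a description, since Ltbp1 was chosen with its ratios known. It also rests on the call of Ltbp1-c, which was lost with listed totals.

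**Figure D3:**
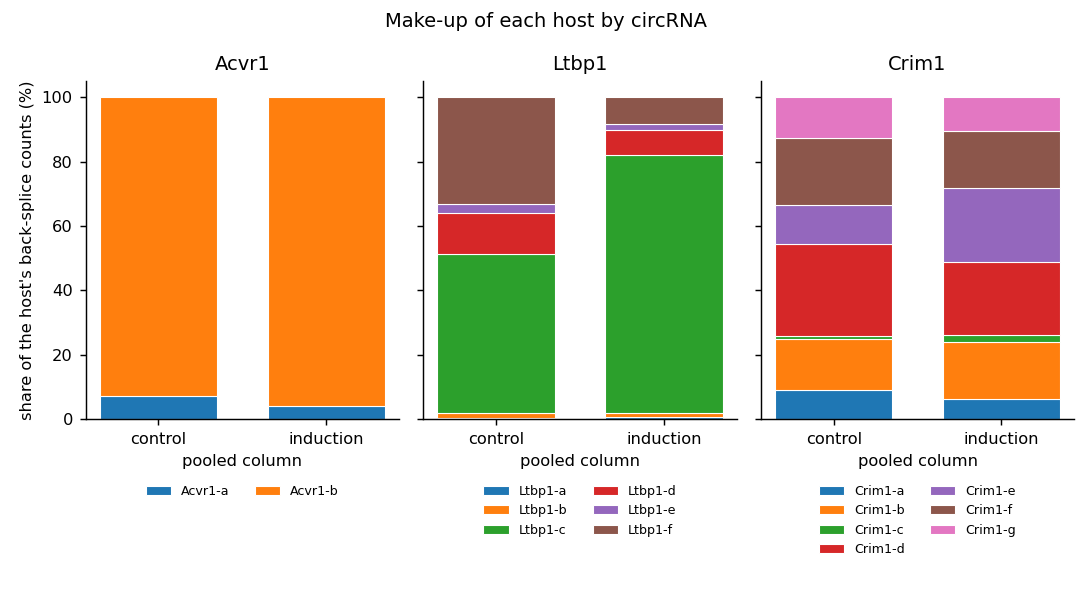
Share of each host's back-splice counts (%, from 0 to 100) held by each circRNA in the pooled control and induction columns, for Acvr1, Ltbp1 and Crim1. Ltbp1-c goes from 49.6% to 80.3% and Ltbp1-f from 33.2% to 8.35%, while the Crim1 bands keep similar heights except Crim1-e, from 12.0% to 22.9%.

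Crim1, the BMP-binding transmembrane protein, had 7 circRNAs within 91.4 kb of chromosome 6, 5 of them lower, none higher and 2 neither. Crim1-d, from 871525 to 872927, was the most abundant, with 79 and 22 counts, 3.91-fold lower (2.41 to 6.60). Crim1-f, from 871525 to 907083, had 57 counts in control and 17 in induction and was 3.65-fold lower (2.10 to 6.70). For Crim1-b, from 828602 to 872927, the counts were 44 and 17, 2.82-fold lower (1.58 to 5.27). All 3 had fewer counts in induction, by factors whose intervals overlap. For Crim1-g, from 894593 to 907083, they were 35 and 10, 3.82-fold lower (1.85 to 8.64). Crim1-a, from 815697 to 828775, had 25 counts in control against 6 in induction, 4.54-fold lower (1.82 to 13.5), and was the only one of the 16 past 4-fold. Crim1-e, from 871525 to 894714, showed 33 and 22 counts, a 1.64-fold difference (0.925 to 2.94), an interval that holds both equal levels and a 2-fold difference. Crim1-c, from 828602 to 907083, had 2 counts in each column.

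The Crim1 sum was 3.12-fold lower in induction (2.47 to 3.98). Leaving out any 1 of its circRNAs, an alternative chosen after seeing the data, gave between 2.89-fold (without Crim1-d) and 3.56-fold (without Crim1-e), so no single junction set it. Of 112 hosts with at least 5 circRNAs, Crim1 was the only one with more than 50% of them lower, which makes 0.893% of these hosts. This is a description, since Crim1 was chosen with its ratios known. It holds for that cut only. The pathway gene Tll1, with 3 circRNAs, had all 3 lower and a sum 3.27-fold lower. The redistribution between its circRNAs was 14.0%, number 45 of the 84 non-collagen hosts. The nearest hosts were Camta1, a calmodulin-binding transcription activator gene (259 and 124 counts, distance 0.38), and Csf1, the macrophage colony-stimulating factor gene (191 and 86 counts, distance 0.55), both lower. These distances exceeded those of the hosts nearest to the other 3 genes. Hosts near in both columns have similar ratios by construction, so nothing is read from Camta1 and Csf1 being lower.

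The 7 Crim1 circRNAs were built from 4 starts and 4 ends. The start at 871525 was used by 3 of them and held 61.5% of the host's counts in control and 63.5% in induction, or 169 and 61 counts in sum. That is 3.02-fold lower. The end at 872927 was used by 2 and had 123 and 39 counts, 3.44-fold lower. The end at 907083 was used by 3 and had 94 and 29 counts, 3.53-fold lower. The end at 894714 occurred in Crim1-e alone, whose share was 12.0% in control (8.41 to 16.4) and 22.9% in induction (14.95 to 32.6), intervals that overlap. Of the 5 Crim1 pairs that share an end with at least 20 counts each, 0 had ratio intervals apart. Over all such pairs without collagens the share was 14.6%, and 5 pairs are too few to set Crim1 off from it. The start of Crim1-b lies 174 nt before the end of Crim1-a, both ends counted, and that of Crim1-g 122 nt before the end of Crim1-e. These stretches are not assigned to exons, since no gene models of Rnor_6.0 were at hand.

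**Figure D4:**
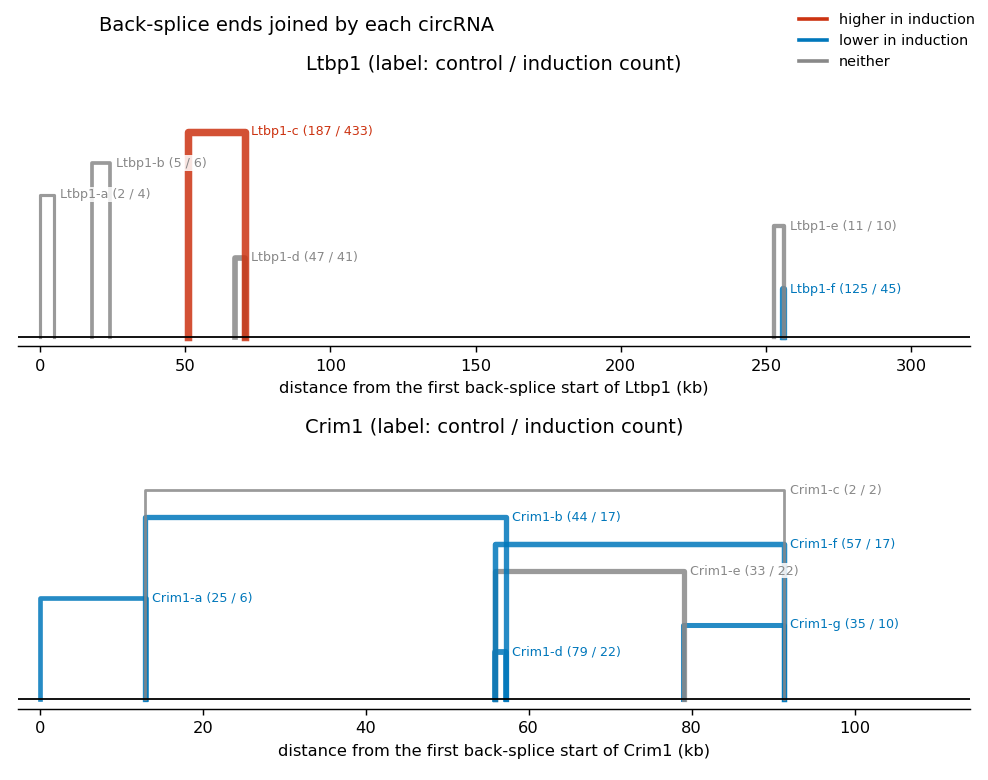
Start and end joined by each circRNA of Ltbp1 and Crim1, as distance in kb from the host's first back-splice start, with thicker lines for more counts and line height for legibility only. Red is higher in induction, blue is lower and grey is neither. In Ltbp1 the higher and lower circRNAs lie 185 kb apart. In Crim1 each lower circRNA overlaps another lower one, and all but Crim1-a share a start or an end.

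Spans varied widely among the 16. They ran from 272 nt in Acvr1-b and 292 nt in Ltbp1-f to 78482 nt in Crim1-c, with a median of 6042 nt against 5664 nt over all circRNAs. The lower circRNAs included both short spans (Ltbp1-f, and Crim1-d with 1403 nt) and a long one (Crim1-b with 44326 nt). Of the 16, 11 shared a start or an end with another listed circRNA, against 44.4% of all circRNAs.

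The rest of the pathway was followed in a list of 130 other genes by role, of which 27 hosted 53 circRNAs. Of these 53, 2 were higher, 3 were lower and 48 were neither, with a median log2 ratio of −0.12. The share called was 9.43%, against 18.5% of all circRNAs and 30.2% of those with at least 20 counts. Many of the 53 had under 20 counts, where few 2-fold differences can be told from counting error. Nothing is therefore read from the difference between these shares. No circRNA of the 24 ligand genes, the 7 co-receptor and decoy genes or the 7 genes of the non-SMAD branch was analysed here. Other receptors had few. Tgfbr1, the type I partner of TGFBR2, had 3 and 6 counts, and the most abundant circRNA of Bmpr2, a type II BMP receptor, had 32 and 39. None of the 5 circRNAs of type I and type II receptors in the list was called. The only secreted binder was Bmper, with 14 and 13 counts.

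Each role held few circRNAs, many with under 20 counts in both columns together. Beside the 18.5% called over all circRNAs, nothing is therefore read from the numbers called by role. Among genes of latency, matrix binding and activation, 1 of 16 circRNAs was higher and 3 were lower. All 3 lower ones belonged to Tll1, a tolloid-like protease that cleaves the BMP antagonist chordin. They had 62 and 15 counts (4.51-fold lower), 37 and 19 (2.12-fold) and 9 and 2 (4.91-fold, 1.02 to 46.7). For the one of 9 and 2 counts the authors' FDR was not under 0.05. The Tll1 sum of 108 and 36 counts was 3.27-fold lower (2.22 to 4.91). The higher one was of Fbn1, the fibrillin to which LTBP proteins attach, with 2 and 11 counts, a ratio of 5.05 (1.10 to 46.8). Its authors' FDR was not under 0.05 either, and the Fbn1 sum over 4 circRNAs was 16 and 20. The most abundant circRNA of this role, of the proprotein convertase gene Furin, had 34 and 46 counts and was not called. None of the 10 circRNAs of SMAD genes was called, and that of Smad4 with the most counts had 37 and 33. None of the 11 of SMAD regulators and co-factors was called. The most abundant, of the acetyltransferase gene Crebbp, had 106 and 67 counts, 1.72-fold lower (1.26 to 2.38). It was short of 2-fold, but equal levels were excluded by counting error and its authors' FDR was under 0.05. Among target genes, 1 of 10 was higher, a Runx2 circRNA with 5 and 31 counts. The most abundant, also of Runx2, the transcription factor needed for osteoblast formation, had 627 and 1328 counts. It was short of 2-fold, at 1.94-fold higher (1.77 to 2.14), with an authors' FDR under 0.05.

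**Figure D5:**
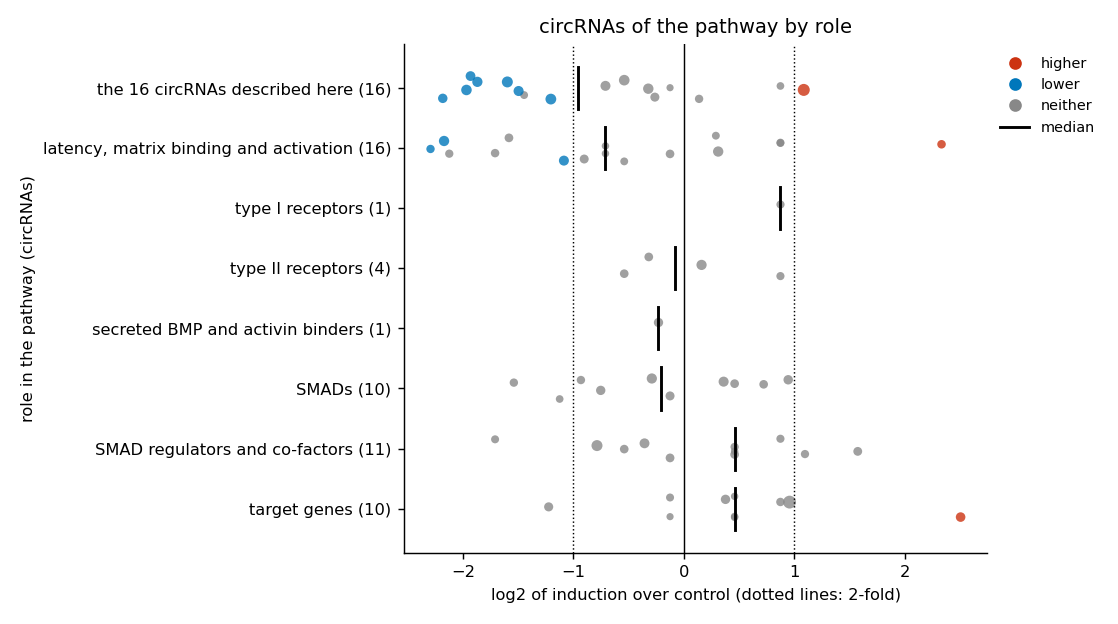
Log2 of induction over control for the 16 circRNAs described here and for the 53 of other pathway genes by role, with larger points for more counts, a black bar at each median and dotted lines at 2-fold. Red is higher, blue is lower and grey is neither. The receptor, binder, SMAD and co-factor rows hold no called circRNA, and the 3 lower ones of the latency row belong to Tll1.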

How the data were processed

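Back-splice reads were measured in 3 control and 3 induction samples, grouped by their titles. Per the submitters' processing notes, reads went through FastQC and BWA (no versions) on Rnor_6.0. Not given in the sources used here are the caller of circRNAs and the way 3 libraries became 1 column. The deposited counts are whole numbers of 1 or more in each column, and circRNAs of 1 group alone are not analysed here. The deposited TPM is the count per 1000000 of a column total, within 0.00627%, with no length correction. The deposited log2 ratio is that of induction over control TPM. The deposited p-value and FDR compare 2 columns of reads.

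The test fixed for 1 column per sample (edgeR) was not possible. Ratios on the TPM totals were given Clopper-Pearson intervals, single counts Poisson intervals and shares exact binomial intervals (Python 3.11.15, scipy 1.17.1), all for counting error only. Reads without molecular identifiers are not independent molecules. Host names found on several chromosomes or over more than 5 Mb were dropped. Named were all circRNAs of the 4 genes, the 2 nearest hosts of each and, of the pathway list, called circRNAs and the most abundant of each role. The members and lists were chosen with earlier results of these data known. Alternatives were other scalings (edgeR 4.0.16 TMM, DESeq2 1.42.0 size factors, listed totals, totals without collagens and Rn7sl1), a 4-fold threshold, 20 counts, rows of 1 name and sums without 1 circRNA.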

Additional observations from a re-analysis of the deposited data

How the results depend on the processing

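No paired analysis was possible because the columns are pooled per group and carry no sample number, and the fits with a replicate block, with DESeq2 and with replicates left out were not run. Each log2 ratio shifted by −0.13 with listed totals, −0.01 with TMM, 0.05 under the size factors of DESeq2 and 0.08 for totals lacking collagens and Rn7sl1. Under these 4 scalings each of the 16 circRNAs and 4 host sums kept its direction, and only the call of Ltbp1-c was lost, with listed totals (log2 ratio 0.95), which left 7 circRNAs called in place of 8. A 4-fold threshold, stricter by construction, left 1 of the 16 in place of 8 and 370 of all circRNAs in place of 767. Without its most abundant circRNA the Ltbp1 sum reversed (log2 ratio −0.97 in place of 0.39) and the Acvr1 sum, then 5 and 2 counts, moved to −1.45 from −0.59. Without Ltbp1-f the Ltbp1 sum moved to 0.85. Leaving out Ltbp1-e, the only row of several names, kept the Ltbp1 sum at 0.41. The additions to Acvr1 and the sums without single circRNAs other than the most abundant were chosen after seeing the data. Counts under 20 limit the ratios of 4 circRNAs.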

Other observations

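Other circRNAs lay within 1 Mb of 3 of the 4 hosts. Near Crim1 there were 3, of Fez2 (13 and 12 counts in control and induction), Strn (7 and 6) and Prkd3, a protein kinase D gene (60 and 57), and none was called. Near Ltbp1 there were 14, of which 3 were called, beside 18.5% of all circRNAs, and nothing is read from so few. A circRNA of Birc6, which encodes an inhibitor of apoptosis, had 13 and 3 counts and was lower, a ratio of 0.212 (0.0387 to 0.770). One whose gene field lists Eif3h and names of multi-copy small RNAs had 11 and 3 counts and was lower too (0.0448 to 0.947). Each of these had under 20 counts in both columns together. A circRNA of Memo1, from 22362488 to 22407626, had 15 and 34 counts and was higher, while the most abundant Memo1 circRNA, with the same start, had 103 and 117 and was not called. No other circRNA was listed within 1 Mb of that of Tgfbr2.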
